A study of Mus musculus with 4 samples.

Results

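The inflammasome is the protein platform with which a cell answers microbial and danger signals in its cytosol, and 10 of its genes were followed across 4 genotypes of primary mouse embryonic fibroblasts (MEFs). The 10 genes were taken by symbol (Nlrp3, Aim2, Naip2, Pycard, Casp1, Casp4, Casp12, Gsdmd, Il1b and Il18), and each matched 1 Ensembl ID among the 54532 genes of the deposited count table. RNA was sequenced from cultures labelled Trp53-/-; Zfp871-/- (called the double null here), Trp53-/-, Zfp871-/- and wild type (WT), with 1 library for each genotype. All were C57BL/6 cells from embryos of 12.5 to 13.5 days, grown in medium with 10% serum and taken at passage 4 while dividing. Trp53 encodes the stress-induced transcription factor p53, and Zfp871 a zinc finger protein whose loss the series ties to p53 and its inhibitor Mdm2. The double null and Trp53-/- cells came from an intercross of double heterozygotes, and Zfp871-/- cells from an intercross of Zfp871 heterozygotes. WT cells arose in both, and which of them was sequenced is not given in the sources used here, nor whether embryos were pooled or how the alleles were made. Between the double null and Zfp871-/-, Trp53 status and cross therefore cannot be told apart. For the pairs with WT it is not known whether the cross differed. A change with the loss of a gene names the genotypes compared here, not a cause.

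A sensor such as NLRP3, AIM2 or a NAIP protein assembles with the adaptor ASC, the product of Pycard, and this platform activates caspase-1. Caspase-1 then matures the cytokines IL-1 beta and IL-18 and cuts gasdermin D, whose free end forms pores in the plasma membrane. Mouse Casp4, also known as caspase-11, binds bacterial lipopolysaccharide in the cytosol and cuts gasdermin D directly. Macrophages are the cells in which this pathway is best known, and fibroblasts are not its usual site.

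Libraries held between 19303167 counts (WT) and 22324599 counts (double null). The labels were compared with the targeted genes first. Trp53 had 1382 counts in the double null and 1233 in Trp53-/-, against 2413 in Zfp871-/- and 2383 in WT. Zfp871 had 307 counts in the double null and 327 in Zfp871-/-, against 784 in Trp53-/- and 660 in WT. Both genes were thus lower in the libraries labelled as lacking them but far from 0. Which part of each gene the alleles lack is not given, so whole-gene counts do not show that either is null, and the names follow the labels. As a check of the cell label, 8 fibroblast markers, among them collagen genes, Pdgfra and Vim, were detected throughout and summed to between 517078 counts (double null) and 654828 counts (Zfp871-/-). Macrophage markers were also present, and they differed widely between libraries. The 15 markers on the list, among them Csf1r, Adgre1 and Lyz2, summed to 1070 normalised CPM, the usual depth-scaled count, in the double null and 1200 CPM in Trp53-/-. The same sum was 94.1 CPM in Zfp871-/- and 82.1 CPM in WT. Csf1r, the receptor of the macrophage growth factor, had 2437 counts in the double null and 2698 in Trp53-/-, against 230 in Zfp871-/- and 192 in WT. All 15 were detected in all 4 libraries, and Lyz2 alone made up between 35.0% and 43.5% of their counts. Markers of neutrophils, mast cells and lymphocytes summed to at most 12 counts in any library, with S100a9 and Elane at 0 in each, and the dendritic cell gene Flt3 was at 0 throughout. Dendritic cell markers summed to between 50 and 81 counts, endothelial markers to between 230 and 463, epithelial markers to between 15 and 128, and erythroid markers to between 5 and 9. The dendritic cell markers differed in direction. Itgax had 20 counts in the double null and 23 in Trp53-/-, against 0 in Zfp871-/- and WT. Zbtb46 had 18 and 25, against 70 and 52, and Xcr1 had 12 and 12, against 11 and 11. In such bulk samples, fewer cells of a type and less RNA per cell cannot be told apart.

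The genes Casp1, Casp4 and Casp12 lie next to each other in the same orientation on chromosome 9 (GRCm38/mm10), within 74.5 kb. Casp1 (ENSMUSG00000025888) spans 5298517 to 5307265, Casp4 (ENSMUSG00000033538) begins 1.56 kb further on, and Casp12 (ENSMUSG00000025887) begins 8.65 kb after the end of Casp4. Promoter sequences were available from RefSeq (GRCm38.p6) for 9 of the 10 genes, Gsdmd being the exception. The 250 bases before the annotated start are shown for 4 genes that were nearly silent in WT and Zfp871-/- cells and that rose with Trp53 loss, written 5′ to 3′ on the strand of the gene. Capitals mark the core of the site bound by PU.1, a transcription factor of macrophages, searched as GAGGAA on both strands. Casp1 is read from chr9:5298267-5298516 (plus strand), Nlrp3 from chr11:59542436-59542685 (plus strand, the start that lies further downstream in RefSeq), Aim2 from chr1:173420354-173420603 (plus strand) and Il1b from chr2:129371140-129371389 (minus strand).
Casp1: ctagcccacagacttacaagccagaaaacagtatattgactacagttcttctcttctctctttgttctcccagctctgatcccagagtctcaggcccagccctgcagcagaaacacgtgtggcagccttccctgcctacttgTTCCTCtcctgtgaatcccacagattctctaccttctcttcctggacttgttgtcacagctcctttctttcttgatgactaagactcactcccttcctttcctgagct
Nlrp3: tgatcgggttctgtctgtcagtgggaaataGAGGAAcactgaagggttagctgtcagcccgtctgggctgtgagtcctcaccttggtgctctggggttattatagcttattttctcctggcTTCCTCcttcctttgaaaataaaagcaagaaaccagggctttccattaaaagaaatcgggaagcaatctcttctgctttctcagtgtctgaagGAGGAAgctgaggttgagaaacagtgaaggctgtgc
Aim2: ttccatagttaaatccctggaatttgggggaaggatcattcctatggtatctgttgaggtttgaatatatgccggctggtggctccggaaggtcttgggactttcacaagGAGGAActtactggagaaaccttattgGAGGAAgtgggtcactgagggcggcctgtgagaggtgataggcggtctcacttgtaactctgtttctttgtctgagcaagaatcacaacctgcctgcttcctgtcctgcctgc
Il1b: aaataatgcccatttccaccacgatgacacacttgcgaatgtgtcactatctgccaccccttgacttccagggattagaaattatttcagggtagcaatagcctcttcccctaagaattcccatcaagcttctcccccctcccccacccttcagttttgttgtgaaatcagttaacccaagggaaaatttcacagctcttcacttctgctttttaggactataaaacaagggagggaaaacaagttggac
The PU.1 core occurred in Casp1 (1 match), Nlrp3 (3 matches) and Aim2 (2 matches), and also in Pycard (1 match). It occurred in none of the windows of Il1b, Naip2, Casp4, Casp12, Il18 and the other Nlrp3 start. Of the windows of 27025 genes, 23.1% held it, so the matches describe these letters and do not show binding. The same windows were searched on both strands for the core of the interferon-stimulated response element (3.04% of genes), the STAT element TTCNNNGAA (7.18%), the AP-1 site TGANTCA (6.87%) and the p53 half-site by its consensus (7.18%). The STAT element occurred 2 times before Casp12, and the p53 half-site occurred 1 time before the upstream start of Nlrp3. These were the only matches of those 4 motifs in the windows of the 9 genes.

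The sensors Nlrp3, Aim2 and Naip2 rose with Trp53 loss from levels close to silence. Nlrp3 (ENSMUSG00000032691, chromosome 11, 59541568 to 59566956), whose protein responds to potassium efflux and membrane damage, had 52 counts in the double null and 70 in Trp53-/-, against 1 in Zfp871-/- and 3 in WT. Aim2 (ENSMUSG00000037860, chromosome 1, 173350879 to 173466040), a sensor of cytosolic double-stranded DNA, had 64 and 67 counts in the double null and Trp53-/-, against 2 in Zfp871-/- and 7 in WT. Naip2 (ENSMUSG00000078945, chromosome 13, 100144063 to 100202092), which in mice detects a rod protein of bacterial secretion systems and engages Nlrc4, had 84 and 129 counts, against 9 in Zfp871-/- and 12 in WT. For each of these sensors both Trp53-null libraries lay above both libraries with Trp53. This order was fixed in advance, because these sensors passed the filter for testing (1 CPM in 2 libraries) only through the Trp53-null libraries. The log2 ratio of the double null to Zfp871-/- was 3.96 for Nlrp3 (95% counting interval 2.86 to 10.73), 3.81 for Aim2 (2.79 to 7.77) and 2.69 for Naip2 (1.93 to 4.1). The log2 ratio of Trp53-/- to WT was 3.69 for Nlrp3 (2.73 to 6.64), 2.76 for Aim2 (1.93 to 4.42) and 3.03 for Naip2 (2.36 to 4.2). The intervals cover counting error only, since the reads carried no molecular identifiers and each genotype was cultured for 1 library only.

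The adaptor and the caspases did not move as a group. Pycard (ENSMUSG00000030793, chromosome 7, 127989708 to 127993867), the adaptor that sensors share, had 37 counts in the double null and 34 in Trp53-/-, against 4 in Zfp871-/- and 14 in WT. Both Trp53-null libraries were higher, but the WT library lay much nearer to them than the Zfp871-/- library did, with log2 ratios of 2.45 (1.43 to 4.86) over Zfp871-/- and 0.98 (0.13 to 2.08) over WT. Casp1, which processes IL-1 beta, had 85 and 111 counts in the double null and Trp53-/-, against 1 in Zfp871-/- and 7 in WT. Like the sensors, Pycard and Casp1 passed the filter only through the Trp53-null libraries, which fixed the order of the groups. The log2 ratios of Casp1 were 4.65 (3.59 to 11.43) for the double null over Zfp871-/- and 3.47 (2.68 to 5.12) for Trp53-/- over WT. Casp4 had 170 and 131 counts in the double null and Trp53-/-, against 39 in Zfp871-/- and 62 in WT. It was thus also ordered by Trp53, but by less, with log2 ratios of 1.78 (1.31 to 2.36) and 0.85 (0.42 to 1.33) for the same pairs. Casp12, best known in mice from the endoplasmic reticulum, had 701 and 601 counts in the double null and Trp53-/-, against 529 in Zfp871-/- and 631 in WT. Its libraries overlapped between the groups, with log2 ratios of 0.10 (-0.06 to 0.27) and -0.28 (-0.45 to -0.12). Along the 74.5 kb of the locus the ratio of Trp53-/- to WT was therefore 3.47 at Casp1, 0.85 at Casp4 and -0.28 at Casp12 on the log2 scale.

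The pore gene and the cytokine genes also differed from each other. Gsdmd (ENSMUSG00000022575, chromosome 15, 75862327 to 75867408) had 702 counts in the double null and 654 in Trp53-/-, against 530 in Zfp871-/- and 354 in WT. The WT library alone stood low, and the log2 ratios were 0.10 (-0.06 to 0.27) for the double null over Zfp871-/- and 0.67 (0.49 to 0.86) for Trp53-/- over WT. Il1b (ENSMUSG00000027398, chromosome 2, 129364570 to 129371139), the gene of the cytokine IL-1 beta, had 44 counts in the double null and 70 in Trp53-/-, and 0 in both Zfp871-/- and WT. Taken against a floor of 3 counts in the library at 0, Il1b was at least 11.9-fold higher in the double null than in Zfp871-/- and at least 20.2-fold higher in Trp53-/- than in WT. Il18 (ENSMUSG00000039217, chromosome 9, 50554827 to 50581840), the gene of the other cytokine that caspase-1 matures, had 16 and 26 counts in the double null and Trp53-/-, against 10 in Zfp871-/- and 38 in WT. Its groups overlapped and its ratios pointed in opposite directions, with 0.32 (-0.85 to 1.68) for the double null over Zfp871-/- and -0.71 for Trp53-/- over WT, where the interval reached from -1.54 to just below 0.

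**Figure D1:**
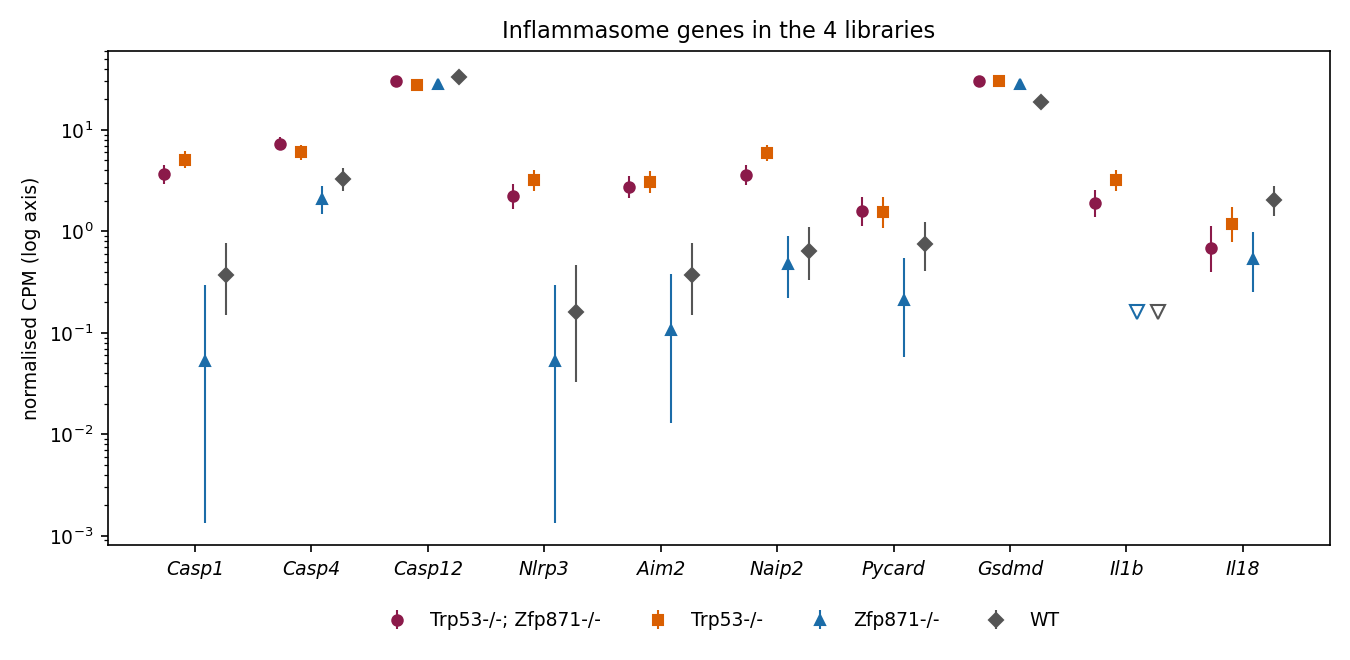
Normalised CPM (log axis) of the 10 inflammasome genes in the double null, Trp53-/-, Zfp871-/- and WT libraries, with 95% Poisson counting intervals; open triangles stand at 3 counts where a library had 0. Casp12 lies between 27.6 and 33.5 CPM in all libraries, while Casp1 is at 3.67 and 5.09 CPM in the Trp53-null libraries against 0.0532 CPM in Zfp871-/- and 0.372 CPM in WT.

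The test over all genes called 5 of the 10 genes with Trp53 loss, all of them higher. It was the edgeR quasi-likelihood test of an additive design (Trp53 + Zfp871) over 13306 genes with Benjamini-Hochberg adjustment at 0.05, in which the 4 libraries leave 1 residual degree of freedom. Nlrp3 rose by 4.63 on the log2 scale (SE 0.535, adjusted p 0.0254), Naip2 by 3.06 (SE 0.363, adjusted p 0.0262) and Casp1 by 4.42 (SE 0.599, adjusted p 0.0313) in this edgeR test. Aim2 rose by 3.63 (SE 0.552, adjusted p 0.0367) and Il1b rose with an adjusted p of 0.0344 in the same edgeR test, where a fitted fold is not given for Il1b because the Zfp871-/- and WT libraries were at 0. The values of Casp4 (log2 change 1.33, adjusted p 0.095), Pycard (1.8, adjusted p 0.134) and Gsdmd (0.39, adjusted p 0.255) missed the edgeR threshold. So did those of Casp12 (-0.09, adjusted p 0.744) and Il18 (-0.29, adjusted p 0.729). Of all 13306 genes 5.01% rose and 4.31% fell with Trp53 loss. All 10 inflammasome genes passed the filter of 1 CPM in 2 libraries, but Casp1, Nlrp3, Pycard, Il1b, Aim2 and Naip2 passed only through the Trp53-null libraries. A gene of that kind had to be higher there to be tested at all. Of these 6 genes 5 rose, where 45.2% of the 334 tested genes under 1 CPM in both Zfp871-/- and WT did, and 0 of the other 4 rose. These counts are therefore not read as a property of the pathway. The p-values describe these 4 cultures, since libraries of different genotypes serve as each other's replicates.

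At a 2-fold threshold, the double null exceeded Zfp871-/- for 7 of the 10 genes, where 5.51% of all tested genes did. For 6 of these 7 the filter fixed the direction, and among the 334 genes of that kind 74.6% were 2-fold higher in this pair. None of the 10 was lower by that much, as 6.33% of all genes were. Trp53-/- exceeded WT by 2-fold for 5 of the 10, where 8.9% of all genes and 81.4% of those 334 did, and 0 were lower, where 8.88% of all genes were. Between both Trp53 pairs Casp4 and Pycard made the difference in count, with log2 ratios of 0.85 and 0.98 over WT. Pycard lay at the threshold, and a prior count of 0.5 in place of 2 gave it 1.04 and the pair a count of 6. The double null exceeded WT by 2-fold for 7 of the 10, where 8.79% of all genes did, and 1, Il18, was lower at -1.43, where 9.23% of all genes were. The median log2 ratio of the 10 genes was 2.57 in the double null over Zfp871-/- and 1.87 in Trp53-/- over WT, against 0.0 for all tested genes in both pairs. With 6 of the 10 tested only through the Trp53-null libraries, these medians were set in part by the filter: the 334 genes of that kind had medians of 2.05 and 2.66.

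Zfp871 loss called none of the 10 genes, and none of the other genes, in the same test (0.0% rose and 0.0% fell). At an unadjusted edgeR quasi-likelihood p under 0.05 there were 510 genes, among them Il18 as the only inflammasome gene, with a log2 change of -1.33 (adjusted p 0.874). DESeq2's Wald test called none of the 10 with Zfp871 loss either, and 3 higher and 4 lower genes over the whole table, while limma-voom called 0. In the pair of Zfp871-/- and WT, 8 of the 10 genes had lower values in Zfp871-/-, where 6717 of all 13306 tested genes had. Gsdmd had a higher value and Il1b was at 0 in both. The ratio was at least 2-fold lower for Casp1, Pycard, Il18 and Aim2, where 3.98% of all genes were, but Casp1 and Aim2 had 1 and 2 counts in Zfp871-/- and intervals that included 0. This count was 5 with a prior count of 0.5, which added Nlrp3, and 3 with a prior count of 5, which left out Aim2 (-0.82). Intervals excluded equality for Il18 (log2 ratio -1.75, -3.09 to -0.89), Pycard (-1.44, -3.87 to -0.13), Casp4 (-0.64, -1.28 to -0.07) and Casp12 (-0.25, -0.42 to -0.08). Gsdmd was higher, at 0.58 (0.39 to 0.78), though none of the 10 was 2-fold higher, as 3.52% of all genes were. The share of all genes whose counting intervals exclude equality is not given, so these intervals do not set the genes apart from others. The 15 macrophage markers had a median of 0.27 in this pair, with 11 higher and 4 lower in Zfp871-/-. The part of macrophages in these differences was not tested.

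In the pair of the double null and Trp53-/-, none of the 10 genes reached 2-fold, where 0.819% of all genes were higher and 1.01% lower by that much. Naip2 (log2 ratio -0.69, -1.12 to -0.3), Il1b (-0.73, -1.34 to -0.19) and Casp1 (-0.46, -0.9 to -0.05) were lower in the double null beyond counting error. Casp4 (0.28, -0.05 to 0.63), Pycard (0.03, -0.68 to 0.75) and Gsdmd (0.01, -0.14 to 0.17) were not. Counting intervals also exclude equality for small differences of genes with many counts, such as Il1r1 (-0.28, -0.38 to -0.18). The share of all genes beyond counting error is not given, so these genes are not set apart from others. The macrophage markers had a median of -0.29 in this pair, with 13 of 15 lower in the double null. Whether Zfp871 loss acted differently with and without Trp53 was not tested, since the 4 libraries leave no degree of freedom for it.

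**Figure D2:**
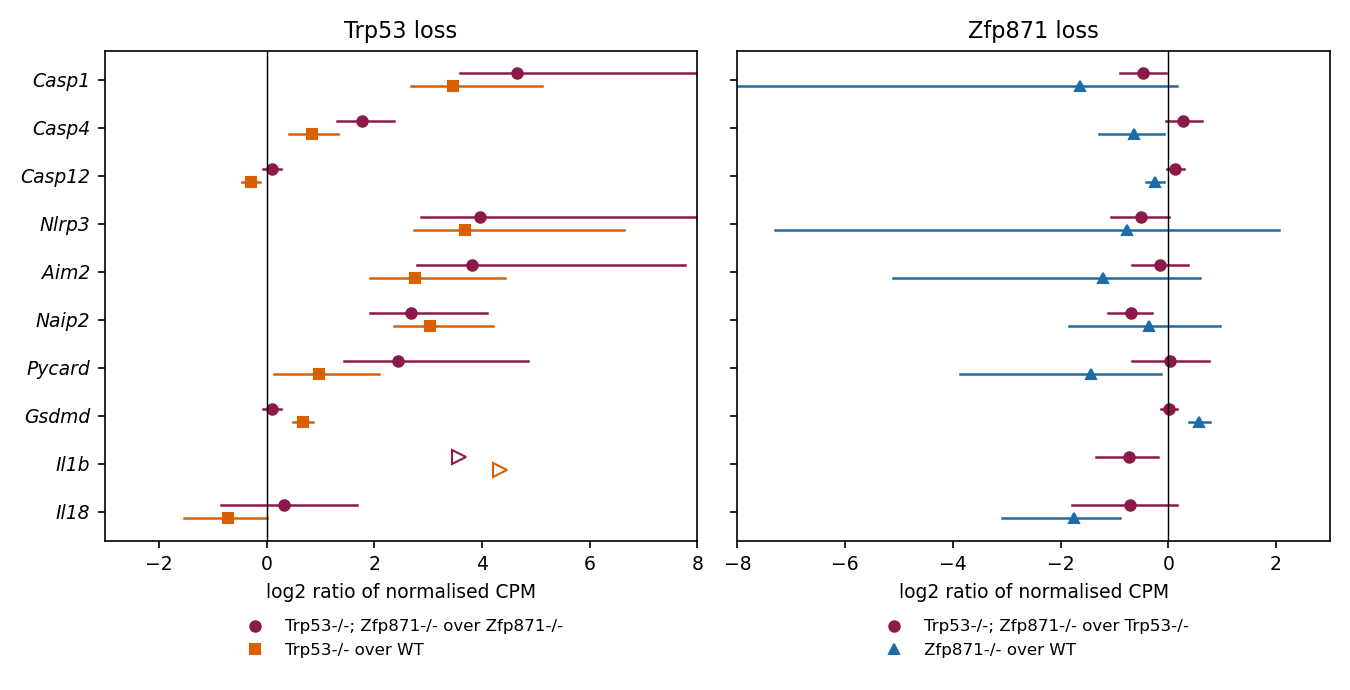
Log2 ratios of normalised CPM for Trp53 loss (left) and Zfp871 loss (right), in the background without the other gene (circles) and with it (squares or triangles), with 95% counting intervals that are cut at the panel edge; open arrowheads are lower bounds for Il1b, which has no value where both libraries were at 0. With Trp53 loss, Casp1, Nlrp3, Aim2 and Naip2 lie between 2.69 and 4.65 in both backgrounds, while Casp12, Gsdmd and Il18 lie between -0.71 and 0.67.

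Compared per length, Gsdmd and Casp12 were the most abundant of the 10 genes in every library. In the authors' FPKM (counts per kilobase and library factor), Gsdmd stood at 12.7 in the double null, 12.5 in Trp53-/-, 11.8 in Zfp871-/- and 7.85 in WT. Casp12 stood at 7.85, 7.13, 7.32 and 8.66 FPKM in the same libraries, and in WT it did not differ from Gsdmd beyond counting error. Casp1 came next in the Trp53-null libraries, with 2.44 FPKM in the double null and 3.38 in Trp53-/-, above Casp4 with 1.97 and 1.61. In the double null the intervals of Casp1 and Casp4 overlapped, and in Trp53-/- they did not. In Zfp871-/- the next were Casp4 (0.558 FPKM) and Il18 (0.515), whose intervals overlapped. In WT it was Il18, at 1.94 FPKM, ahead of Casp4 at 0.88. Il1b, Aim2, Naip2, Il18 and Nlrp3 lay between 0.551 and 0.992 FPKM in the double null, each overlapping the next in order. In Trp53-/- Il1b, at 1.67 FPKM, overlapped Casp4, and Naip2, Il18, Aim2 and Nlrp3 followed down to 0.786 FPKM, each overlapping the next, and Pycard was last at 0.407. In Zfp871-/- and WT the genes Casp1, Pycard, Naip2, Aim2 and Nlrp3 all lay at or under 0.246 FPKM, each overlapping the next in order. Il1b was listed at 0 in both, with upper limits of 0.103 and 0.102 FPKM.

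All 15 macrophage markers rose with Trp53 loss in the edgeR quasi-likelihood test, where 5.01% of all tested genes did. Their medians were 3.54 in the double null over Zfp871-/- and 4.1 in Trp53-/- over WT, against 0.0 for all tested genes in both pairs. The marker Tyrobp, with 14 counts in Zfp871-/- and 15 in WT, passed the filter only through the Trp53-null libraries. Set against the summed counts of those markers, the inflammasome genes were ordered differently than by CPM. Per 1000 macrophage marker counts, Casp1 had 3.43 counts in the double null and 4.26 in Trp53-/-, against 0.565 in Zfp871-/- (interval 0.0143 to 3.15) and 4.53 in WT (1.82 to 9.33). Nlrp3 had 2.1 and 2.68 in the double null and Trp53-/-, against 0.565 (0.0143 to 3.15) in Zfp871-/- and 1.94 (0.4 to 5.67) in WT. Aim2 had 2.58 and 2.57, against 1.13 (0.137 to 4.08) and 4.53 (1.82 to 9.33). Naip2 had 3.39 and 4.95, against 5.08 (2.32 to 9.65) and 7.76 (4.01 to 13.6).

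On that scale the intervals of Casp1, Nlrp3, Aim2 and Naip2 overlapped between Trp53-/- and WT. They also overlapped between the double null and Zfp871-/-, where the double null had 2.74 to 4.24 for Casp1 and 1.57 to 2.75 for Nlrp3. Its intervals were 1.99 to 3.3 for Aim2 and 2.7 to 4.19 for Naip2. Il1b had 1.77 (1.29 to 2.38) per 1000 in the double null and 2.68 (2.09 to 3.39) in Trp53-/-. Its 0 counts in Zfp871-/- and WT allow up to 2.08 and 2.39 per 1000 (95% limits). The WT limit thus overlapped the Trp53-/- interval, and the Zfp871-/- limit that of the double null. The more abundant genes were far lower per marker count in the Trp53-null libraries. Casp12 had 28.3 and 23.0 per 1000 in the double null and Trp53-/-, against 299 in Zfp871-/- and 408 in WT, and Gsdmd had 28.3 and 25.1, against 299 and 229. Casp4 (6.86 and 5.02, against 22.0 and 40.1) and Il18 (0.645 and 0.997, against 5.65 and 24.6) were also lower per marker count in both Trp53-null libraries. Pycard had 1.49 and 1.3 per 1000, against 2.26 (0.615 to 5.78) and 9.06 (4.95 to 15.2), so that WT stood above the other libraries. The part of macrophages in the differences between genotypes was not tested, and this scale was chosen after the values were seen.

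**Figure D3:**
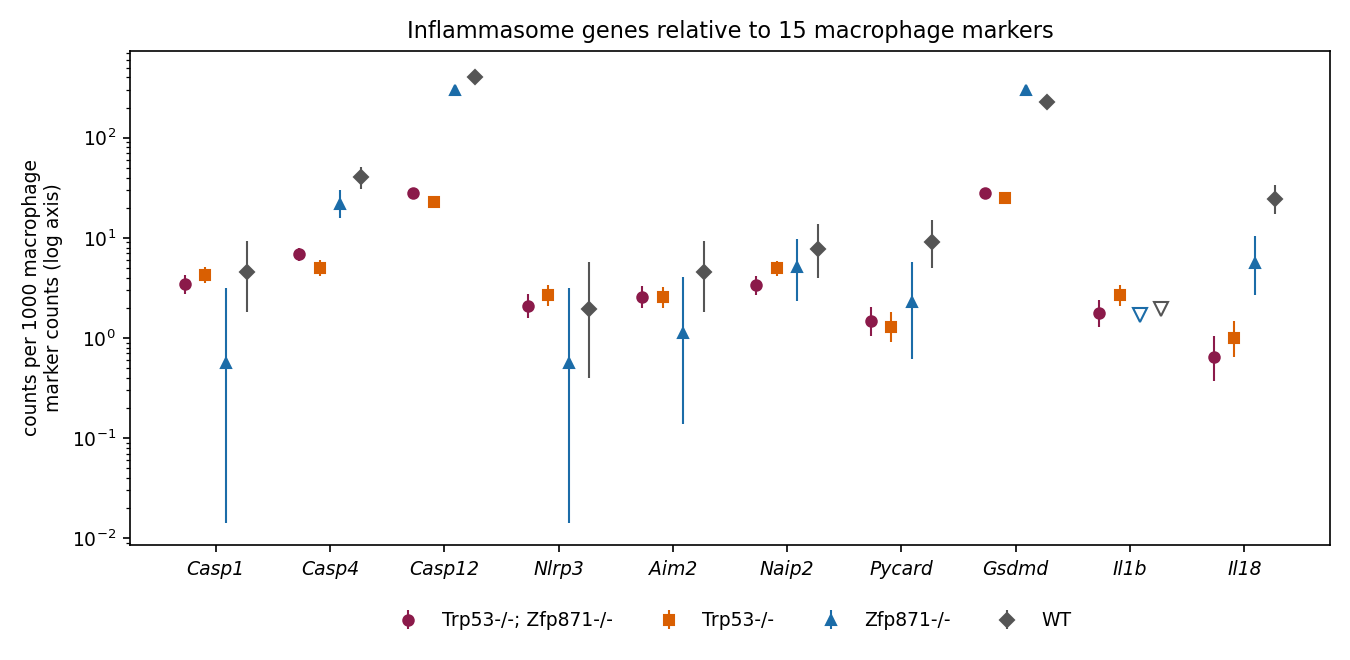
Counts of the 10 inflammasome genes per 1000 summed counts of 15 macrophage markers (log axis) in the double null, Trp53-/-, Zfp871-/- and WT libraries, with 95% Poisson counting intervals of the gene; open triangles stand at 3 counts where a library had 0. Casp1 lies at 3.43 and 4.26 in the Trp53-null libraries and 4.53 in WT, while Casp12 and Gsdmd lie at 23.0 to 28.3 in the Trp53-null libraries against 229 to 408 in Zfp871-/- and WT.

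For each of the 10 genes, the 3 genes nearest in pattern over the 4 libraries were listed. Likeness was measured as the root mean square distance of centred log2 CPM over the 4 libraries, which gives a description of 4 points and no more. Nearest to Casp1 were Clec4e (distance 0.171), Arhgap9 (0.222) and Csf2rb (0.263). Clec4e encodes a lectin receptor of macrophages and had 60 counts in the double null and 88 in Trp53-/-, against 0 in Zfp871-/- and 6 in WT. Nlrp3 was nearest to Fmnl1 (0.086), Galnt6 (0.107) and Itgam (0.116), the integrin chain of myeloid cells and 1 of the 15 macrophage markers. Il1b was nearest to Btk, a kinase of B cells and myeloid cells, Cd52 and the complement gene C1qc, at distances between 0.206 and 0.245. Aim2 was nearest to Susd3, Snx20 and Tfec (0.146 to 0.184), and Naip2 to Ptafr, Adap1 and the Fc receptor gene Fcgr4 (0.071 to 0.122).

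Casp12 was nearest to Guk1, a guanylate kinase, Ptpre and Klhl8 (0.008 to 0.016), and Gsdmd to Inppl1, Gm3325 and the mitotic kinesin gene Kif18b (0.019 to 0.026). Casp4 was nearest to Sapcd2, Cdk15 and the pseudogene Rps24-ps3 (0.086 to 0.095), Pycard to Gpt, Nfkbid and Gcnt1 (0.112 to 0.194), and Il18 to Mtss1, Gas1 and Fgf13 (0.095 to 0.114). Genes that vary little lie close to many others, so distances are not comparable between the 10 genes. Of the 30 nearest genes, 2 were on the macrophage list (Itgam for Nlrp3 and C1qc for Il1b), and the others were on none of the lists used here. That list holds only 15 of the 13306 tested genes, so this count does not measure likeness to macrophages.

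Among the other sensors, 3 of 9 genes were expressed enough to test and 2 of them rose with Trp53 loss. Nlrp1b had 27 counts in the double null and 39 in Trp53-/-, against 1 in Zfp871-/- and 2 in WT, and rose in the edgeR quasi-likelihood test (Benjamini-Hochberg adjusted p 0.0336). Naip6 had 23 and 33 counts, against 2 and 1, and rose as well (edgeR adjusted p 0.0444). Naip5, a mouse sensor of flagellin, had 30 and 45 counts, against 0 and 4, and missed the edgeR threshold (adjusted p 0.059). All 3 passed the filter only through the Trp53-null libraries. Of the 334 tested genes of that kind 45.2% rose, so the count of 2 is not read as a property of the sensors. The NAIP genes are close copies: 19.1% of the 50-base stretches of Naip2 transcripts occur in other genes, and 36.9% of those of Naip5, so counts may be shared among them. Nlrc4, with which the NAIP proteins assemble, had 43 and 21 counts in the double null and Trp53-/-, against 6 and 7, and was under the filter.

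Of the relatives of Aim2 in the DNA-sensing family, all 7 tested genes were higher in both Trp53 pairs. Of all 13306 tested genes, 6673 were higher in the double null over Zfp871-/- and 6665 in Trp53-/- over WT. Of the 7 relatives, Ifi204, Ifi207 and Ifi211 rose with Trp53 loss in the test, where 5.01% of all genes did. The median log2 ratio of the 7 was 1.33 in the double null over Zfp871-/- and 3.32 in Trp53-/- over WT. Ifi204, which in mice senses DNA, had 1357 counts in the double null and 1944 in Trp53-/-, against 333 in Zfp871-/- and 167 in WT (edgeR quasi-likelihood adjusted p 0.0432). Ifi207 had 264 and 429 counts, against 53 and 30 (edgeR adjusted p 0.0416), while Mndal (191 and 231, against 87 and 29) and Ifi205 (61 and 75, against 36 and 21) missed the threshold. All 7 relatives had higher values in Zfp871-/- than in WT, as 6584 of all tested genes had. All 7 also had lower values in the double null than in Trp53-/-, as 6539 of all tested genes had. The medians of the 7 relatives were -0.61 in the double null over Trp53-/- and 0.99 in Zfp871-/- over WT. Aim2 stood at -0.15 (-0.67 to 0.36) and -1.21 (-5.11 to 0.59) in these pairs, both within counting error. These genes also share sequence, from 7.29% of the 50-base stretches of Ifi207 to 72.8% of those of Ifi211. Their separate counts are uncertain, and the 7 genes are not independent of each other.

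Of the IL-1 family and its receptors 7 of 11 genes were tested. None of the 7 rose or fell with Trp53 loss in the edgeR quasi-likelihood test, where 5.01% and 4.31% of all tested genes did. The median log2 ratio of the 7 was -0.23 in the double null over Zfp871-/- and -0.13 in Trp53-/- over WT. Il1rl1, the receptor of IL-33, had 11287 counts in the double null, 10112 in Trp53-/- and 14239 in Zfp871-/-, against 35842 in WT. Il1rn, the antagonist of the IL-1 receptor, had 359, 391 and 251 counts in the same libraries, against 1105 in WT. WT alone was high for both. Among the 4 genes under the filter, the decoy receptor gene Il1r2 had 22 and 29 counts in the double null and Trp53-/-, against 6 in Zfp871-/- and 4 in WT, and Il1a had 17 and 14, against 5 and 0. Il33 had 32 and 51 counts in the double null and Trp53-/-, against 46 and 11, and Il18bp, which neutralises IL-18, had 64 and 55, against 45 and 35. Gsdme and Ninj1, which act in pore formation and membrane rupture, were the only tested genes of the other gasdermins and membrane rupture list. Gsdme had 305 and 245 counts, against 239 and 137, and Ninj1 had 463 and 600, against 312 and 506, and neither was called.

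Among 11 regulators, Irf8 was the only gene called with Trp53 loss, where 5.01% of all tested genes rose and 4.31% fell. Irf8, a transcription factor of myeloid cells that drives NAIP genes in mouse macrophages, had 107 counts in the double null and 133 in Trp53-/-, against 8 in Zfp871-/- and 7 in WT, and rose by 3.72 (SE 0.392, edgeR quasi-likelihood adjusted p 0.0226). With 0.425 CPM in Zfp871-/- and 0.372 CPM in WT, it too passed the filter only through the Trp53-null libraries. P2rx7, an ATP-gated channel upstream of NLRP3, had 92 and 85 counts, against 34 and 23 (edgeR adjusted p 0.082). Serpinb1a, an inhibitor of inflammatory proteases, had 43 and 30, against 65 and 150, and Card6 had 59 and 30, against 57 and 56. Of 18 priming receptors and NF-kB genes 0 rose and 1 fell, where 5.01% and 4.31% of all tested genes did. Their medians were -0.11 in the double null over Zfp871-/- and 0.22 in Trp53-/- over WT. The gene that fell was Ticam1, the adaptor of Toll-like receptor 3, with 269 and 254 counts, against 393 and 462 (edgeR quasi-likelihood adjusted p 0.0439). Tlr2 (332 and 383, against 116 and 198), Tnfaip3 (337 and 342, against 169 and 107) and Tlr4 (255 and 255, against 260 and 487) were not called.

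Of 7 apoptotic caspase genes 0 rose and 1 fell, where 5.01% of all tested genes rose and 4.31% fell. Apaf1, which assembles the apoptosome and is a known p53 target, had 1337 counts in the double null and 1439 in Trp53-/-, against 2190 and 1935, and fell by 0.83 on the log2 scale (SE 0.135, edgeR quasi-likelihood adjusted p 0.0409). Casp2 had 725 and 737 counts, against 409 and 307, and Casp8 had 1126 and 1185, against 775 and 726. Neither was called.

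**Figure D4:**
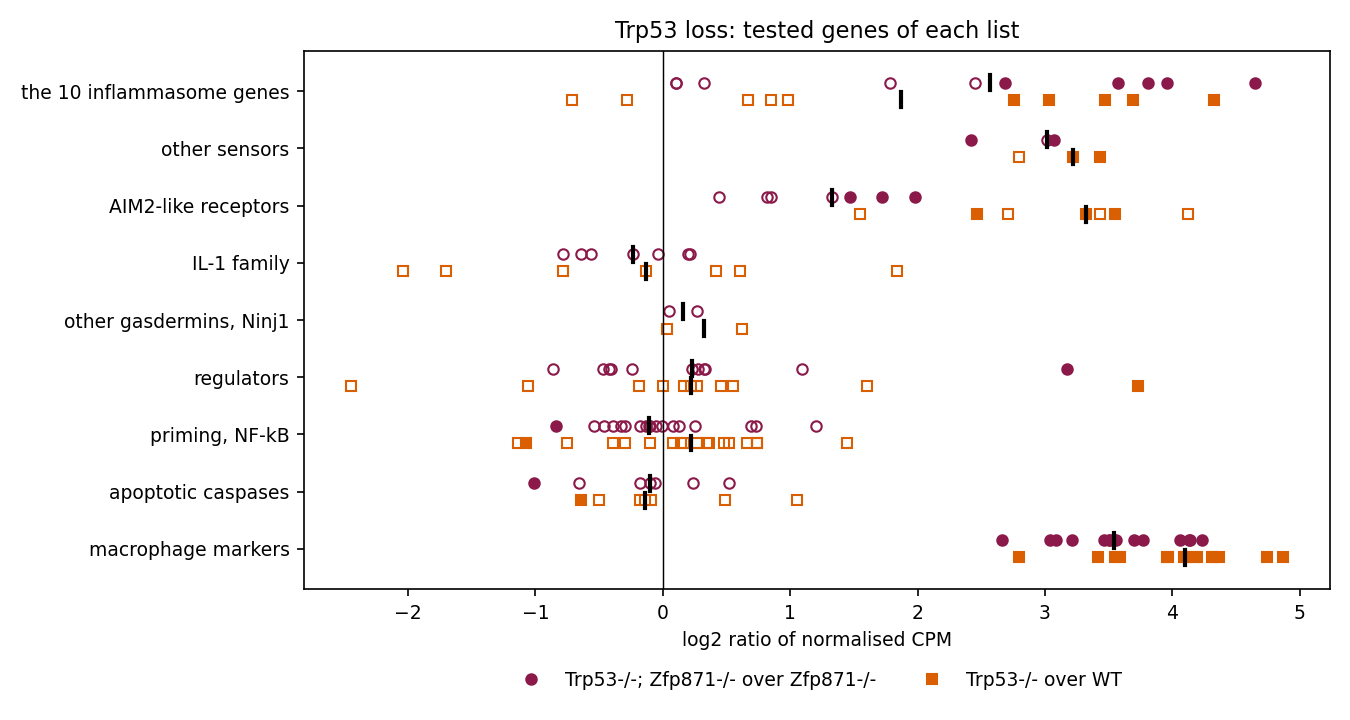
Log2 ratios of normalised CPM for Trp53 loss, for the tested genes of each list: the double null over Zfp871-/- (circles) and Trp53-/- over WT (squares), filled where the edgeR quasi-likelihood test called the gene, with the median of each set as a black bar and genes at 0 in the lower library drawn at their bound. The medians of the inflammasome genes are 2.57 and 1.87, those of the macrophage markers 3.54 and 4.1, and those of the apoptotic caspases -0.1 and -0.14.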

How the data were processed

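RNA sequencing of 4 MEF libraries, 1 for each genotype, was analysed from the deposited tables. The authors deposited raw counts per Ensembl gene, and the submitters' processing notes list featureCounts, STAR, fastp and the build mm10. Their versions, the strand setting and the annotation used are not stated in the labels. Reads of overlapping antisense genes therefore cannot be separated, which touches Pycard (12.8% of its exon bases shared with Gm45205, at 1 to 3 counts). Tables per library hold normalised values deposited by the authors and read as FPKM, because each equals the count divided by a length per gene and 1 factor per library (largest deviation 2.5e-08 on the log2 scale over 12115 genes). Lengths merge all annotated exons, so Pycard (3800 bases) may read low per length. Symbols and coordinates came from GENCODE M21 (GRCm38). Counts were scaled with TMM in edgeR 4.0.16 (R 4.3.3), with factors of 1.041 (double null), 1.0406 (Trp53-/-), 0.9437 (Zfp871-/-) and 0.9783 (WT). Genes of at least 1 CPM in at least 2 libraries were tested. Log2 ratios of single pairs used a prior count of 2 (none where taken relative to macrophage markers). Their intervals are exact (Clopper-Pearson) 95% intervals of both counts, and a library at 0 was set to 3 counts for bounds. DESeq2 1.42.0, limma 3.58.1, other scalings, filters and prior counts were alternatives. Genes named are the 10 inflammasome genes, up to 4 tested genes per list with the highest and lowest mean Trp53 ratio, and the 3 nearest in pattern; 1 gene of this rule is not reported here. Further genes that a group or function pointed to (Ifi211, Nlrc4, marker genes) were chosen for mention with their values known. The inflammasome genes and all lists were chosen with earlier results of these data known. Of the 12 AIM2-like genes, 10 matched the annotation.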

Additional observations from a re-analysis of the deposited data

Results flagged for a closer look

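With 1 library per genotype no sample could be checked against others of its group. The values here are from named genes and the tested AIM2-like genes whose log2 ratios for the loss of a gene pointed in opposite directions in the backgrounds without and with the other gene, each beyond counting error, and none of these differences was tested. For Zfp871 loss, Ifi204 stood at -0.61 without Trp53 (double null over Trp53-/-) and at 0.99 with it (Zfp871-/- over WT). Ifi207 stood at -0.78 and 0.79, and Mndal at -0.36 and 1.53, in the same pairs. Ifi203 stood at -0.72 and 1.38, Ifi209 at -1.15 and 2.11, and Ifi211 at -0.26 and 0.73. Il33 stood at -0.72 and 1.9 for Zfp871 loss, and at -0.78 and 1.84 for Trp53 loss (the double null over Zfp871-/-, and Trp53-/- over WT). Il1rl1 stood at 0.07 and -1.33 for Zfp871 loss, and Apaf1 at -0.19 and 0.18. None of the 10 inflammasome genes met this criterion.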

How the results depend on the processing

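The 5 inflammasome genes that rose with Trp53 loss also rose under DESeq2 size factors, total counts, a filter of 0.5 CPM, limma-voom and a design with the tested factor alone. DESeq2's Wald test called 4, without Il1b (adjusted p 0.229), and with no filter on low counts edgeR's quasi-likelihood test called 6, Casp4 being added (adjusted p 0.0427). No inflammasome gene fell under any of these settings, and none was called with Zfp871 loss. Over all genes, no filter gave 1113 that rose and 1191 that fell with Trp53 loss, instead of 667 and 574, and 2 and 4 with Zfp871 loss instead of 0 and 0. DESeq2's Wald test gave 3 and 4 with Zfp871 loss. Total counts instead of TMM differed by 0.12 in mean log2 scaling between Trp53-null and other libraries and gave 884 that rose and 432 that fell (67.2% of calls rose, against 53.7%). The uncalled value of Casp12 then turned from -0.09 to 0.03. With 1 library left out, 1 background remains and there is no test. The Trp53 log2 ratio is then that of a single pair already given above, so it is no further check. It lay between 3.47 and 4.65 for Casp1, 3.69 and 3.96 for Nlrp3, 2.76 and 3.81 for Aim2, and 2.69 and 3.03 for Naip2. It changed sign for Casp12 (-0.28 to 0.1) and Il18 (-0.71 to 0.32), which were not called. Relative to the summed macrophage markers, a scale chosen after seeing the data, the log2 ratio of the double null to Zfp871-/- turned to -1.68 for Casp4, -0.6 for Pycard and -0.59 for Naip2. That of Trp53-/- to WT turned to -0.09 for Casp1, -3.0 for Casp4, -2.8 for Pycard, -3.19 for Gsdmd, -0.82 for Aim2 and -0.65 for Naip2. In the same order of pairs, the uncalled Casp12 stood at -3.4 and -4.15, Il18 at -3.13 and -4.62, and Gsdmd at -3.4 in the first. Values were positive for Nlrp3 (1.89 and 0.47), and in the first pair for Casp1 (2.6) and Aim2 (1.19). The ratios on this scale used no prior count, unlike the main ratios. Those positive values rest on 1 to 3 counts in Zfp871-/- or WT, and their counting intervals per marker count overlapped. They therefore do not show a rise on this scale. Prior counts of 0.5 and 5 moved the number of inflammasome genes 2-fold higher to 6 and 5 in Trp53-/- over WT and to 7 and 6 in the double null over WT, and left it at 7 in the double null over Zfp871-/-. No paired analysis was possible because each genotype has 1 library and the labels give no replicate numbers. Depth limits Casp1, Nlrp3, Aim2 and Pycard, with 1 to 4 counts in Zfp871-/-, and Il1b, with 0 in Zfp871-/- and WT.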
